A study of Spodoptera exigua with 2 samples.

Results

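The cells described here are hemocytes, the circulating cells of insect blood, that carried very many RNA molecules and stayed under limits on the transcripts that mark the main hemocyte lineages of the beet armyworm, Spodoptera exigua. They were chosen from measured values. Each cell had at least 20000 unique molecular identifiers (UMIs, 1 per captured mRNA molecule). The prophenoloxidases PPO1 and PPO2 (LOCUS6221 and LOCUS6527) were together below 200 per 10000 UMIs, SPARC (LOCUS820) was below 100, and procathepsin H with cysteine proteinase 1-like (LOCUS11288 and LOCUS6153) was below 1000. Cecropin B (LOCUS6878) was below 60 per 10000 in naive larvae and below 400 in challenged larvae, and a cell held under 3 UMIs of LOCUS1946 and under 5 of LOCUS9294. This rule found 387 of the 14840 naive cells with at least 200 genes, and 444 of the 12524 challenged cells. They made up 2.61% (95% exact Clopper-Pearson interval 2.36 to 2.88%) and 3.55% (3.23 to 3.88%) of the cells of their libraries, and held 12.8% and 13.1% of the UMIs. These intervals, like all others given here, cover counting error only.

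Both groups were hemocytes of pooled hemolymph from larvae reared on artificial diet, injected through a proleg when newly molted to instar 5 and bled 8 h later. Naive larvae received phosphate-buffered saline, and immune-challenged larvae received 140000 heat-killed Escherichia coli TOP10 cells each, bacteria that cannot grow. Each group was 1 droplet library of 3′ transcript ends, so no test between the groups was possible and all differences between libraries are descriptions of those libraries. The levels of 13002 genes were deposited under locus numbers, and a locus is named below only where the study pairs it with a name.

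Insect hemocytes clot hemolymph, engulf or wall off invaders, and melanize them. Granulocytes, plasmatocytes, oenocytoids and spherulocytes are the usual lepidopteran classes, and oenocytoids are the ones known for prophenoloxidase, the precursor of the enzyme that makes melanin. Ribosomal proteins build the machinery that translates mRNA, and cells that grow or make much protein are known for high levels of their transcripts.

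A naive RNA-rich cell held 24990 UMIs at the median, from 20011 to 69539, and 3106 genes. A challenged one held 25847.5 UMIs, from 20009 to 67969, and 3334.5 genes. Of all cells with at least 20000 UMIs, 562 in the naive and 943 in the challenged library, the limits removed 175 and 499. In the naive library 108 were past the cecropin B limit, 91 of them past no other limit, and 45 were past the prophenoloxidase limit. In the challenged library 327 were past the limit on LOCUS1946, 243 of them past no other, 110 past the cecropin B limit and 101 past the prophenoloxidase limit. No deep cell of either library was past the cathepsin limit.

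Within the selected cells the limited genes were mostly low, which the rule fixed. The median was 2.04 per 10000 UMIs for the prophenoloxidases, 1.498 for SPARC and 1.80 for the cathepsins in the naive library, and 3.53, 1.33 and 2.51 in the challenged library. Cecropin B, an antibacterial peptide, stood at a median of 4.78 per 10000 in naive and 89.4 in challenged cells, under limits that differed between the libraries. Free RNA was not measured here, and the level of a marker in another class of cells is given for comparison only. PPO1 alone had a median of 4.85 per 10000 in 897 naive cathepsin-high cells and 8.08 in 1523 challenged ones, cells whose median depths were 2515 and 2607 UMIs. The rule limited the prophenoloxidases in RNA-rich cells, and the cathepsin-high cells were far shallower, so these values stand side by side with nothing read from them.

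Cells lay close to most of the limits on both sides. The nearest cells inside and outside were at 178 and 228 per 10000 for the prophenoloxidases, 97.4 and 112.8 for SPARC, and 59.6 and 61.1 for cecropin B in the naive library. In the challenged library they were at 194 and 209, 99.3 and 112.5, and 398.7 and 400.9. For LOCUS1946 they held 2 and 3 UMIs in both libraries, and for LOCUS9294 4 and 6 in the naive and 4 and 5 in the challenged library. For the cathepsins the highest cells were at 348.96 and 379.5 per 10000, well under the limit and with none past it, and the deepest cells just under the UMI minimum held 19997 and 19981 UMIs. At more than 0.5 times at least 1 marker limit stood 74 naive cells (19.1%) and 123 challenged cells (27.7%).

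The working name of these cells, RNA-rich hemocytes without a lineage marker, held for part of them only. Of 26 further markers of hemocyte clusters that the rule did not use, at least 1 reached 50 per 10000 UMIs in 78 of the 387 naive cells (20.2%, 95% interval 16.3 to 24.5%) and in 214 of the 444 challenged cells (48.2%, 43.5 to 53.0%). The same held for 77.3% and 87.3% of the cells of 2000 to 10000 UMIs under the same limits, and for 60.0% and 70.7% of the other deep cells. With every cell thinned at random to 2000 UMIs, the shares were 25.8% and 53.2% in RNA-rich cells and 78.1% and 88.4% in the cells of ordinary depth. Both comparisons put fewer marked cells among the RNA-rich ones. The 26 include the hypothetical protein LOCUS3619, which the study lists for granulocyte and oenocytoid clusters alike. It reached 20 per 10000 in 73.7% naive and 66.5% challenged cells of ordinary depth, and in 25.1% and 13.5% of RNA-rich cells. A marked cell is thus not always marked for 1 lineage, and the part of LOCUS3619 in these shares was not tested.

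The markers that led in these cells were of several kinds. Among naive cells the hypothetical protein LOCUS11054, a marker of SPARC-high cells, was the highest in 23, LOCUS5543 in 16, spodoptericin in 13 and LOCUS5542 in 10. Among challenged cells cecropin A1 was the highest in 95, LOCUS5542 in 44, LOCUS5543 in 34 and LOCUS11054 in 22. The challenged count of cecropin A1 stood beside the higher cecropin B limit of that library, and the part of that limit in it was not tested. The cells are therefore called RNA-rich cells under the marker limits, or RNA-rich cells, and are given no cell type name.

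Levels were compared with 2035 naive and 1526 challenged cells of 2000 to 10000 UMIs under the same limits, called cells of ordinary depth, whose medians were 4651 and 4846 UMIs. UMIs were summed over the cells of each class and scaled to the total UMIs of the class as CPM. Among 2546 genes with at least 50 CPM in either class of each library, 124 (4.87%) were at least 2-fold higher in RNA-rich cells of both libraries and 415 (16.3%) at least 2-fold lower. The median of all genes lay at a log2 ratio of -0.16 in the naive and -0.15 in the challenged library. The 50 most abundant genes held 39.1% and 36.7% of the UMIs of RNA-rich cells, against 32.3% and 28.3% at ordinary depth. The split of higher and lower depended on the scaling. With trimmed mean of M values (TMM) factors the median shifted to 0.35 and 0.32 and the counts became 431 higher and 221 lower, so that higher genes were 66.1% of those counted in place of 23.01%. With totals that left out the 50 most abundant genes they were 36.2%, and against all cells of 2000 to 10000 UMIs, whatever their markers, they were 41.6%. Ratios below are on the scale of all UMIs.

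The 37 named genes that the rule did not use gave 27 with enough reads. None of the 27 was 2-fold higher in both libraries, against 4.87% of all genes, and 11 were 2-fold lower, against 16.3%. Their median ratio was 0.7264 in the naive and 0.812 in the challenged library, and the median of all genes was 0.896 and 0.901. The 11 included the 4 genes grouped here as matrix and clotting: hemocytin, hemicentin 1-like, hemicentin 2-like and BLL4. The study gives no such role for BLL4. The others were spodoptericin, PGRP-LB-like, troponin I, the GABA receptor-associated protein and the hypothetical proteins LOCUS2768, LOCUS11054 and LOCUS3619.

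Transcripts of the ribosome were among the most abundant named ones. Ribosomal protein S23, part of the small subunit, stood at 19008 CPM in naive RNA-rich cells and 13067 at ordinary depth, a ratio of 1.45 (95% exact conditional interval 1.44 to 1.46). Challenged cells stood at 18564 against 11547 CPM, or 1.61 (1.60 to 1.62). The acidic protein P0, part of the stalk to which elongation factors bind, showed the greatest ratio of the group, with 8100 against 4411 CPM in the naive library (1.84, 1.82 to 1.86) and 8409 against 3876 CPM in the challenged one (2.17, 2.14 to 2.20). All 7 named genes of the ribosome and of elongation were higher in both libraries, none by 2-fold in both. The others were P1 at 1.41 and 1.72, L18 at 1.16 and 1.24, L23 at 1.22 and 1.33, L10 at 1.04 and 1.07, and elongation factor 1-alpha-like, which carries transfer RNA to the ribosome, at 1.10 and 1.28. The median of the 7 ratios was 1.22 and 1.33. Naive L10 crossed 1 under another setting, and stood at 0.977 with the limits on LOCUS1946 and LOCUS9294 scaled to depth, as described below for the hemicentins.

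S23 varied little among RNA-rich cells. Its level was 142 per 10000 UMIs at the 10th percentile, 195 at the median and 226 at the 90th percentile of naive cells, and every one of the 387 had S23 at 50 or more. At ordinary depth the same percentiles were 57.6, 122 and 202. The challenged cells stood at 148, 188 and 220. The spread at ordinary depth includes more counting noise, since those cells hold fewer UMIs.

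**Figure D1:**
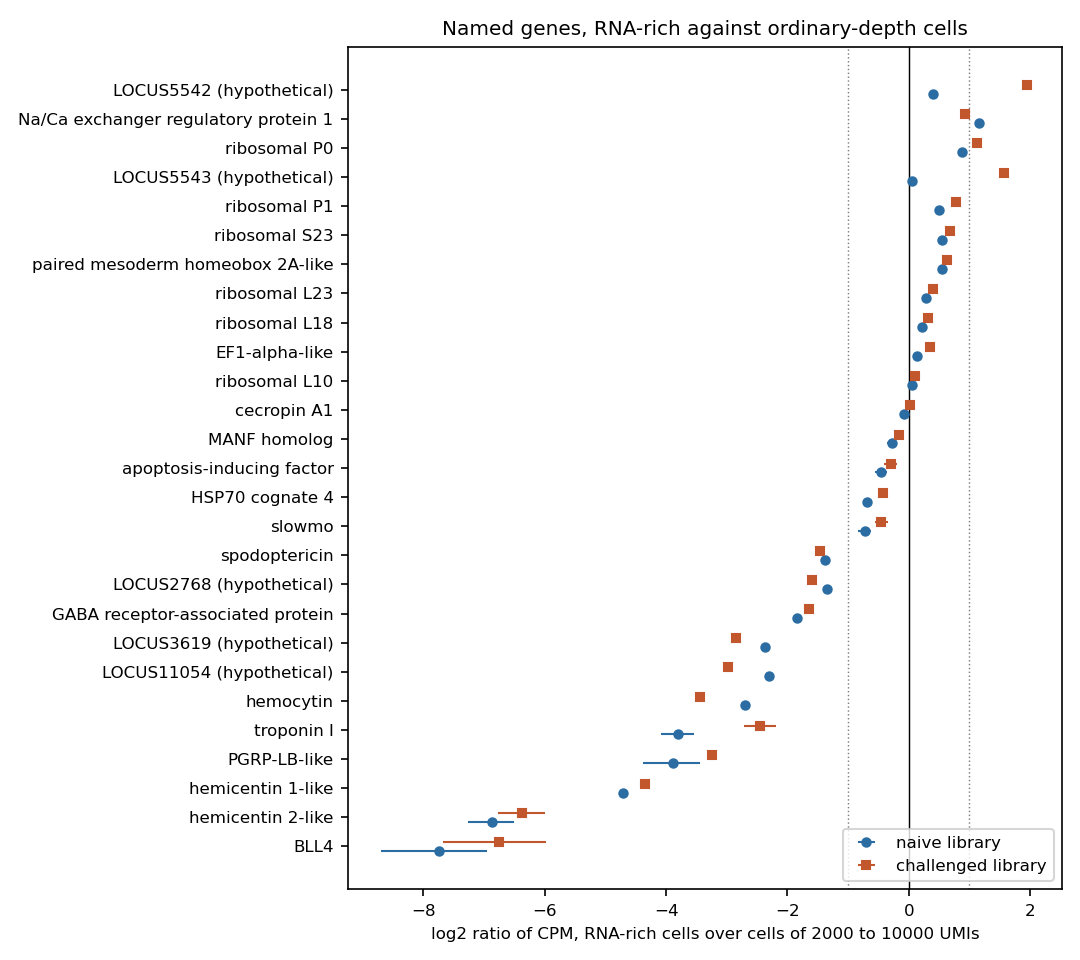
Log2 ratio of CPM, RNA-rich cells over cells of 2000 to 10000 UMIs under the same limits, for the 27 named genes with at least 50 CPM in either class of each library, with blue circles for the naive and orange squares for the challenged library. Bars are 95% exact conditional intervals of counting error and dotted lines mark 2-fold. The 7 genes of the ribosome and of elongation lie right of 0, and hemicentin 1-like, hemicentin 2-like and BLL4 lie farthest left.

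Among the genes grouped here as matrix and clotting, BLL4 included, were the lowest ratios of all named genes tested. All 4 that the rule did not use were at least 2-fold lower in both libraries, with a median ratio of 0.0233 and 0.0306. Hemicentin 1-like, a large extracellular matrix protein, stood at 256 CPM in naive RNA-rich cells and 6730 at ordinary depth, 26.3-fold lower. In the challenged library it was at 254 and 5173 CPM, 20.3-fold lower. It was also lower per cell, with no scaling to depth, at 6.91 UMIs in an RNA-rich naive cell on average against 33.7 at ordinary depth, and 7.11 against 26.6 in the challenged library.

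Few cells carried these transcripts. Hemicentin 1-like reached 20 per 10000 UMIs in 11 of 387 naive RNA-rich cells (2.84%) and in 27.5% of naive cells at ordinary depth, or 3.62% and 28.6% with all cells thinned to 2000 UMIs. Hemicentin 2-like, a relative of it, was at 5.85 against 687 CPM and at 4.84 against 400 CPM. BLL4 was at 1.15 against 248 CPM and at 1.05 against 113 CPM. The sizes of these differences depended on the limits on LOCUS1946 and LOCUS9294, which in fixed UMIs are stricter for deep cells. With both limits scaled to depth in the cells of ordinary depth, an alternative chosen after seeing the data, hemicentin 2-like stood at a ratio of 0.0338 in both libraries in place of 0.00851 and 0.0121. BLL4 then stood at 0.0152 and 0.0222 in place of 0.00464 and 0.00926, and hemicentin 1-like at 0.0677 and 0.0724, all still far below 1.

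Hemocytin, a clotting protein that binds bacteria and hemocytes in other insects, was at 260 against 1698 CPM in the naive library, a ratio of 0.153 (0.147 to 0.160). The challenged values were 323 against 3496 CPM and 0.0924 (0.0893 to 0.0955). The hypothetical protein LOCUS11054 was at 950 against 4683 CPM and 760 against 5988 CPM, ratios of 0.203 and 0.127. LOCUS3619, another hypothetical protein, was at 1386 against 7166 CPM and 847 against 6069 CPM, ratios of 0.193 and 0.140. Over all naive cells of 2000 to 10000 UMIs, whatever their markers, they were at 17957 and 11379 CPM. LOCUS11054 was unevenly spread over classes, with a median of 231 per 10000 in naive prophenoloxidase-high cells and 3.29 in cathepsin-high cells.

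Antimicrobial genes went separate ways. Cecropin A1, an antibacterial peptide like cecropin B, was at 634 against 667 CPM in the naive library (0.951, 0.919 to 0.984) and at 3203 against 3174 CPM in the challenged library (1.01, 0.993 to 1.03). These were the ratios nearest to 1 in the group, and their side of 1 was not stable: the naive ratio was 1.35 with TMM factors, and the challenged one 0.545 against all cells of 2000 to 10000 UMIs. Spodoptericin, another antimicrobial peptide, was lower, at 1017 against 2642 CPM and 592 against 1636 CPM, ratios of 0.385 and 0.362. PGRP-LB-like, a relative of the fly enzyme that degrades peptidoglycan and so restrains the immune response, was at 4.12 against 61.3 CPM and 163 against 1539 CPM, ratios of 0.0673 and 0.106.

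Other named genes lay on both sides. Sodium/calcium exchanger regulatory protein 1 (LOCUS6327) was at 12846 against 5765 CPM in the naive library, a ratio of 2.23 (2.21 to 2.25), and at 13390 against 7034 CPM in challenged cells, or 1.90 (1.89 to 1.92). Its level at ordinary depth depended on the cells taken: over all cells of 2000 to 10000 UMIs, whatever their markers, it was at 7869 and 12101 CPM. Cathepsin-high cells, which the limits left out, carried it at a median of 677 per 10000 UMIs in the naive and 632 in the challenged library. LOCUS5543 was at ratios of 1.04 and 2.97 and LOCUS5542 at 1.32 and 3.85, and their naive ratios were 0.728 and 0.938 when each cell had the same weight. Paired mesoderm homeobox 2A-like, named by the study for a plasmatocyte cluster and of a family of transcription factors, was at 489 against 334 CPM and 590 against 382 CPM, ratios of 1.46 and 1.55. The GABA receptor-associated protein, whose family acts in autophagy, was at 834 against 2985 CPM and 662 against 2071 CPM, ratios of 0.279 and 0.320.

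The remaining named genes were weaker or rarer. Heat shock 70 kDa protein cognate 4, a constitutive chaperone, was at ratios of 0.621 and 0.744, apoptosis-inducing factor, a mitochondrial flavoprotein, at 0.7264 and 0.812, slowmo at 0.603 and 0.731, and the MANF homolog, a protein of the secretory pathway, at 0.824 and 0.896. With TMM factors, both ratios of apoptosis-inducing factor and of the MANF homolog and the challenged ratios of the heat shock cognate and slowmo lay above 1, at 1.01 to 1.24. The cathepsin-cell marker LOCUS2768 was at 0.392 and 0.331. Troponin I, a regulator of muscle contraction, was at 12.1 against 169 CPM and 12.0 against 65.5 CPM. The 10 named genes without enough reads included all 3 of the spherulocyte cluster, calphotin-like, trypsin alkaline B and LOCUS11234, which were at 0.161 to 3.16 CPM in RNA-rich cells of either library. LOCUS970, given for a plasmatocyte cluster, had 0 UMIs in every class.

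Among loci without a name, LOCUS9264 had the greatest ratio by the fixed ranking, at 144 against 17.3 CPM in the naive and 184 against 17.97 CPM in the challenged library, 8.29-fold and 10.2-fold higher. LOCUS11101 was next, at 141 against 22.4 CPM and 115 against 18.5 CPM, 6.28-fold and 6.23-fold higher. LOCUS172 was at 16.8 against 634 CPM and 17.4 against 483 CPM, and LOCUS1090 at 5.08 against 125 CPM and 2.34 against 131 CPM. No name was given for these 4 in the sources used here.

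Levels also changed with depth below the minimum of 20000 UMIs. In naive cells under the limits, P0 was at 4188 CPM in cells of 2000 to 5000 UMIs, 4544 at 5000 to 10000, 5850 at 10000 to 15000 and 7486 at 15000 to 20000. It then stood at 7977, 8460, 8022 and 7762 CPM in the 4 deeper bands, so that most of the rise lay below 20000 UMIs. Hemicentin 1-like in naive cells went from 5203 CPM to 7638, 2746, 639 and 286 over the first 5 bands. In challenged cells it was at 2147, 6659, 6403, 1881 and 464 CPM, and its fall came at a greater depth than in the naive library. From the band just below 20000 UMIs to the band just above it, the level went from 639 to 286 CPM and from 1881 to 464 CPM.

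**Figure D2:**
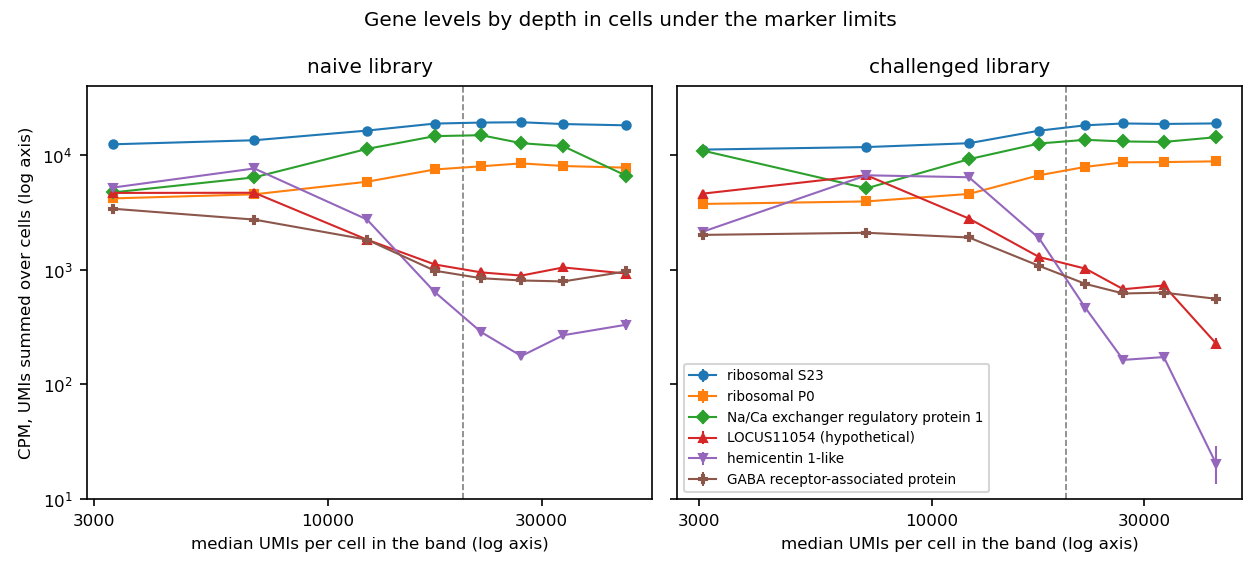
CPM (log axis) of 6 named genes in cells under the marker limits, summed within 8 bands of UMIs per cell and drawn at the median depth of each band (log axis), with the naive library at left and the challenged library at right. Bars are 95% exact Poisson intervals and the dashed line marks 20000 UMIs. Ribosomal S23 and P0 climb up to near the line and change less beyond it, while hemicentin 1-like and LOCUS11054 fall across it.

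The share of cells that stayed under the limits also changed with depth. It was 31.8% of 3541 naive cells of 2000 to 5000 UMIs, 26.5% at 5000 to 10000, 44.1% at 10000 to 15000 and 58.5% at 15000 to 20000. Above that it was 65.5%, 71.3%, 76.5% and 67.7%, the last over 31 cells of at least 40000 UMIs. The challenged shares were 27.3%, 21.6%, 22.8%, 40.2%, 52.4%, 49.1%, 45.4% and 28.4%. Deep naive cells were thus mostly under the limits, whereas deep challenged cells were divided. The limit on LOCUS1946, a fixed number of UMIs and so stricter in deeper cells, alone removed 3 naive and 243 challenged deep cells. The cecropin B limit also differed between the libraries. The part of either limit in these shares was not tested.

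The other deep cells were a comparison class of like depth. Among 2142 genes tested against the 175 naive and 499 challenged deep cells that the limits removed, 5 (0.233%) were at least 2-fold higher in RNA-rich cells of both libraries and 44 (2.05%) were 2-fold lower. Of the 124 genes higher over ordinary depth, 32 were at least 2-fold higher over the same cells in the other deep cells too, and of the 415 lower genes 264 were lower there too. Both comparisons used the same cells of ordinary depth. The share of all tested genes at 2-fold in the other deep cells over ordinary depth was not counted, so nothing is read from these overlaps. Against both comparison classes, 2 genes were higher and 27 lower. Those 2 were LOCUS11453 and LOCUS11454, unnamed loci given after their values were seen, at 2.02 and 2.25 times the level of the other deep cells in the naive and 5.60 and 7.42 times in the challenged library.

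Of the named genes, 23 had enough reads for that comparison, and 1 was higher and 4 were lower. The higher one was LOCUS5542, at ratios of 2.55 and 3.54, with its neighbour in number LOCUS5543 at 1.91 and 3.43. The lower ones were hemicentin 1-like at 0.264 and 0.460, hemocytin at 0.299 and 0.417, LOCUS11054 at 0.121 and 0.162, and LOCUS3619 at 0.405 and 0.402. Hemocytin and LOCUS11054 were taken as markers of SPARC-high cells, and cells past the SPARC limit were among the other deep cells. The rule can therefore have set part of these low ratios, and how much was not tested. S23 was at 1.15 and 1.08 and P0 at 1.35 and 1.06, closer to 1 than against ordinary depth. L18 was at 1.05 and 0.974 and L10 at 1.07 and 0.964, on the other side of 1 in the challenged library. Spodoptericin, 2-fold lower than at ordinary depth in both libraries, was at 0.488 and 1.06. LOCUS6327 was at 2.51 in the naive and 0.945 in the challenged library, where the other deep cells, most of them past the LOCUS1946 limit, carried 14170 CPM.

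Genes per cell were compared at equal depth. Thinned to 2000 UMIs, the median RNA-rich cell held 724 genes in the naive library (95% interval of the median 714 to 734) and 781 in the challenged library (769 to 792). Cells of ordinary depth held 786 and 827, the other deep cells 736 (717 to 750) and a challenged median with the interval 720 to 734, and all cells of 2000 to 10000 UMIs 721 and 747. The RNA-rich cells therefore had somewhat fewer genes than their counterparts under the same limits at equal depth, although without thinning they had 3106 and 3334.5 against 1276 and 1423.5. Against the other deep cells and all cells of 2000 to 10000 UMIs, thinned, challenged RNA-rich cells had more genes and naive ones were close to both.

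A droplet with 2 cells also holds many UMIs, so doublets were examined. Scrublet, which scores each cell by its likeness to simulated pairs, marked 0 naive cells and 1 challenged cell of the whole libraries at its automatic threshold and an expected rate of 5%, which means that the call did not work. At an expected rate of 10% it marked 21 naive RNA-rich cells (5.43%, 3.39 to 8.18%) and 18 challenged ones (4.05%, 2.42 to 6.33%), against 3.00% and 1.97% at ordinary depth and 4.57% and 4.21% of the other deep cells. The 5% of cells with the highest scores, a choice made after seeing the data, held 35 naive (9.04%) and 49 challenged (11.0%) RNA-rich cells, 6.09% and 5.64% of cells of ordinary depth, and 10.3% and 14.0% of the other deep cells. Leaving these cells out gave 133 genes higher and 436 lower.

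High scores went with particular genes. Of the 41 naive RNA-rich cells with LOCUS11054 at 20 or more per 10000, 22 (53.7%) were among the highest scores, and of the other 346 cells 13 (3.76%) were. In the challenged library they were 27 of 39 (69.2%) and 22 of 405 (5.43%). Cells with SPARC at 20 or more showed 35.1% and 32.6%, and the 62 and 215 cells with LOCUS5543 plus LOCUS5542 at 20 or more showed 4.84% and 6.98%. The markers of more than 1 kind of cell reached 20 per 10000 in 39 naive RNA-rich cells (10.1%) and 92 challenged ones (20.7%), against 30.9% and 28.1% of the other deep cells and 18.3% and 26.2% at ordinary depth. Thinned to 2000 UMIs, these shares were 8.79% and 20.3%, 31.4% and 28.3%, and 22.5% and 33.8%. The rule capped lineage markers in RNA-rich cells and took the other deep cells from those past a limit. It can therefore have set part of these differences, and how much was not tested. Prophenoloxidase-high cells themselves carried SPARC at medians of 94.0 naive and 79.6 challenged per 10000, so 1 kind of cell can hold markers of another.

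The RNA-rich cells lay near each other in expression when neither the genes of the rule nor depth was used. Every cell of at least 2000 UMIs was thinned to 2000, and the 20 nearest neighbours of each were found in each library. On average 42.5% of the neighbours of a naive RNA-rich cell and 49.7% of those of a challenged one were RNA-rich cells, which made up 4.17% and 4.75% of the cells compared. These shares describe cells of 1 library each and carry no test. Other markers of the cells that the limits removed, such as LOCUS11054 and cecropin A1, were not left out. The choice of cells can therefore have set part of this closeness, and how much was not tested. Cells of 10000 to 20000 UMIs under the limits made up 36.7% and 21.7% of the neighbours, the other deep cells 6.45% and 19.7%, and the cells of ordinary depth 7.12% and 3.32%, although the last were 21.9% and 16.3% of all cells compared. The neighbours had a median of 19768 and 23656 UMIs before thinning, against 6073 and 7507 among all cells. Depth before thinning thus went with the profile left after it. Of the 387 and 444 cells, 15 and 14 had no RNA-rich neighbour.

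The RNA-rich cells were not uniform. LOCUS6327 ranged from 9.30 per 10000 UMIs at the 10th percentile through 106 at the median to 305 at the 90th in naive cells, and from 25.6 through 85.7 to 312 in challenged cells. LOCUS5543 was at 0, 0.636 and 33.2 in naive cells and at 0, 8.31 and 62.7 in challenged cells. Cecropin A1 was at 0, 4.01 and 16.5, and at 2.08, 22.7 and 83.0. Set beside S23, these genes varied widely from cell to cell.

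**Figure D3:**
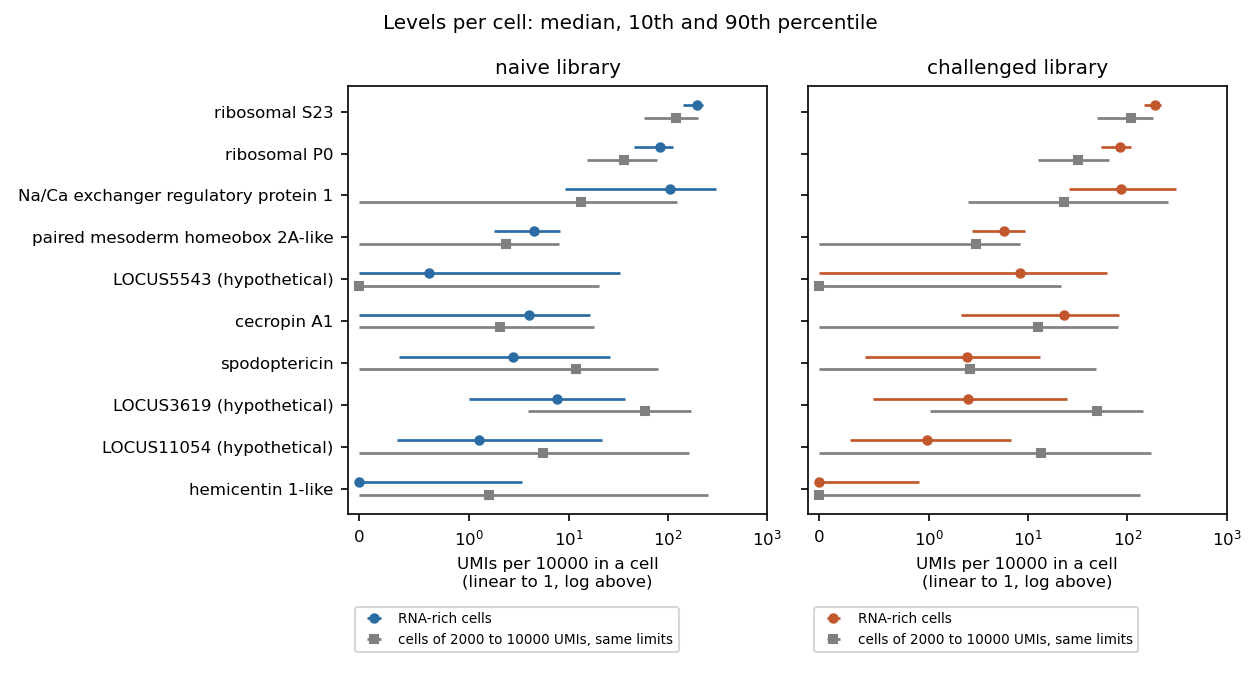
Level per cell (UMIs per 10000, linear to 1 and log above) of 10 named genes, with the naive library at left and the challenged library at right, coloured circles for RNA-rich cells and grey squares for cells of 2000 to 10000 UMIs under the same limits. Points are medians and lines run from the 10th to the 90th percentile of cells. S23 is narrow at a median of 195 and 188 in RNA-rich cells, while LOCUS6327 and LOCUS5543 are broad.

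LOCUS6327 and the pair LOCUS5543 and LOCUS5542 were high in mostly different cells. LOCUS6327 was at 100 or more per 10000 in 203 naive (52.5%) and 197 challenged (44.4%) RNA-rich cells, against 13.0% and 17.1% at ordinary depth. Thinned to 2000 UMIs the shares were 50.9% and 45.0% against 13.5% and 18.1%, and 17.1% and 57.5% of the other deep cells. LOCUS5543 plus LOCUS5542 was at 20 or more in 62 naive (16.0%) and 215 challenged (48.4%) RNA-rich cells, against 13.8% and 17.3% at ordinary depth, or 17.1% and 49.1% against 14.99% and 18.8% when thinned. Of the other deep cells, thinned, 9.71% of naive and 19.2% of challenged ones were past that level. Among the classes compared here, the pair was thus most common in challenged RNA-rich cells. Cells below 2000 UMIs were not compared, and the study lists both loci among the top genes of naive oenocytoid clusters.

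Counted together, 186 naive cells were past the LOCUS6327 level only, 45 past that of the pair only, 17 past both and 139 past neither. The challenged counts were 153, 171, 44 and 76. The levels of 100 and 20 were chosen with the data known and do not lie at gaps, so the counts describe ranges and not cell types. Across cells, Spearman's rank correlation of LOCUS5543 with LOCUS5542 was 0.81 over 387 naive and 0.95 over 444 challenged cells, and that of LOCUS6327 with LOCUS5543 was -0.38 and -0.55. Cells of 1 library share its preparation and its depth range, so these values are descriptions.

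**Figure D4:**
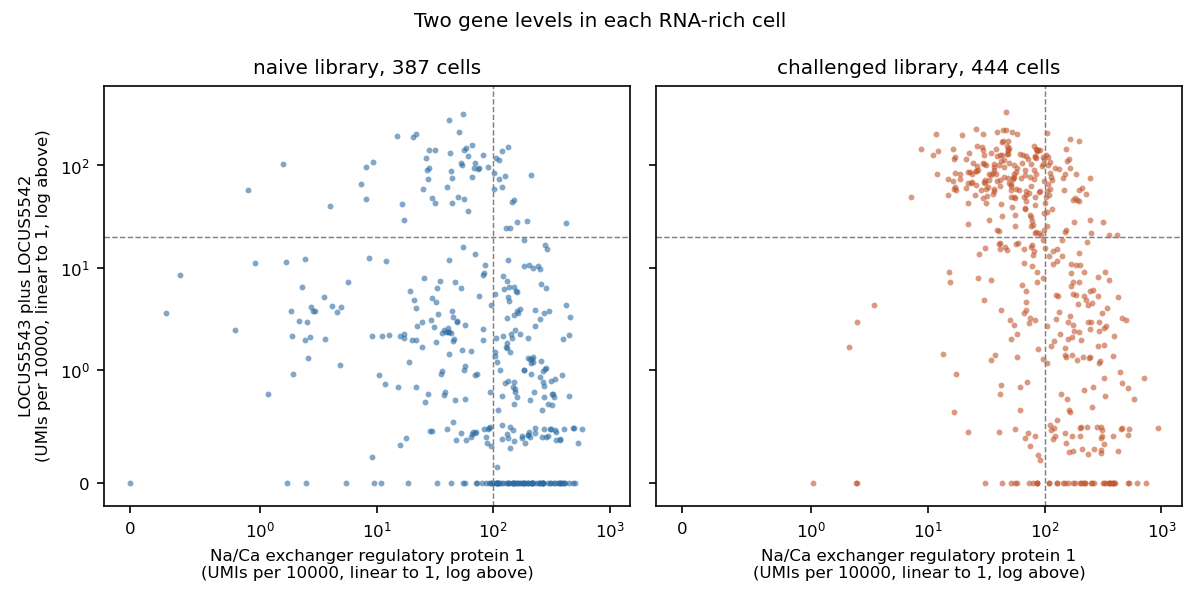
Each point is an RNA-rich cell, with the level of sodium/calcium exchanger regulatory protein 1 (LOCUS6327) on the x axis and LOCUS5543 plus LOCUS5542 on the y axis, both in UMIs per 10000 (linear to 1, log above), for 387 naive cells at left and 444 challenged cells at right. Dashed lines mark 100 and 20 per 10000. The cloud at upper left holds 45 naive and 171 challenged cells.

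The ranges also differed in other measures. Cells past the LOCUS6327 level only held a median of 682 genes at 2000 UMIs in the naive and 699 in the challenged library, whereas those past the level of the pair only held 831 and 819. S23 was at a median of 207 and 196 per 10000 in the former and 168 and 183 in the latter. Paired mesoderm homeobox 2A-like was at 3.31 and 4.33 per 10000 against 6.98 and 6.04. Across all RNA-rich cells, S23 and the number of genes at 2000 UMIs had a rank correlation of -0.72 (387 cells) and -0.56 in the challenged library (444 cells), 2 quantities that share a fixed total.

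Spodoptericin marked a smaller range of cells. It was at 20 or more per 10000 in 49 naive (12.7%) and 22 challenged (4.95%) RNA-rich cells, against 39.7% and 24.6% at ordinary depth. The 49 naive cells held a median of 4.82 per 10000 of LOCUS6327, against 127 in the other 338, and a P0 level of 49.9 against 86.9. In the 22 challenged cells LOCUS6327 was at 48.9 against 86.2.

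Bacterial challenge was compared within RNA-rich cells and, beside them, within cells of ordinary depth. Among 2320 genes in RNA-rich cells, 49 (2.11%) were at least 2-fold higher in the challenged library and 19 (0.819%) at least 2-fold lower. At ordinary depth, among 2706 genes, 120 (4.43%) were higher and 44 (1.63%) lower. Genes higher in both classes numbered 25, which is 51.0% of the 49 and 20.8% of the 120, and the 7 lower in both were 36.8% of the 19 and 15.9% of the 44. The median of all genes was at a log2 ratio of 0.08 in RNA-rich cells and 0.16 at ordinary depth. Cells of the challenged library entered under a cecropin B limit of 400 rather than 60 per 10000. With 60 in both libraries, 179 challenged cells (1.43%) remained, with 40 genes higher and 49 lower.

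Among named genes outside the rule with at least 50 CPM in either library, PGRP-LB-like and cecropin A1 had the greatest ratios after challenge in RNA-rich cells. PGRP-LB-like went from 4.12 to 163 CPM in RNA-rich cells, 39.6-fold (95% interval 29.3 to 54.8), and from 61.3 to 1539 CPM at ordinary depth, 25.1-fold. Cecropin A1 went from 634 to 3203 CPM, 5.05-fold (4.92 to 5.18), beside 4.76-fold at ordinary depth. Spodoptericin was lower, at a ratio of 0.581 (0.564 to 0.599) beside 0.619. Each of the 3 lay on the same side of 1 in both classes, and the difference between the classes was not tested. In both classes the cecropin B limit was stricter for naive than for challenged cells. The study lists PGRP-LB-like and cecropin A1 beside cecropin B as the top genes of a challenged granulocyte cluster. The unequal limits can therefore have set part of the rise of these genes, and how much was not tested.

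Hypothetical proteins LOCUS5543 and LOCUS5542 stood apart. LOCUS5543 was at 906 CPM in naive and 2154 in challenged RNA-rich cells, a ratio of 2.38 (2.32 to 2.44), and at 870 and 725 CPM at ordinary depth, a ratio of 0.834 (0.806 to 0.862). LOCUS5542 was at 852 and 2267 CPM, a ratio of 2.66 (2.60 to 2.73), and at 645 and 589 CPM at ordinary depth, a ratio of 0.913 (0.879 to 0.948). The share of RNA-rich cells past 20 per 10000 of the pair was 16.0% in the naive and 48.4% in the challenged library, as given above. In the cells past it, the median of the pair was 88.9 per 10000 in 62 naive and 76.7 in 215 challenged cells. More challenged cells were thus past the level, and their median was not higher.

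Named genes with smaller ratios included matrix, ribosomal and unannotated ones. Hemocytin was at a ratio of 1.24 in RNA-rich cells and 2.06 at ordinary depth, LOCUS11054 at 0.799 and 1.28, and LOCUS3619 at 0.611 and 0.847. S23 was at 0.977 and 0.884 and P0 at 1.04 and 0.879. Hemicentin 1-like was at 0.993 (0.942 to 1.05), an interval that takes in no change. LOCUS6327 was at 1.04 and 1.22.

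The unnamed loci with the greatest changes were, by the fixed ranking, LOCUS408 at 18.8-fold (16.8 to 21.1) and LOCUS6882 at 18.4-fold (16.7 to 20.4) higher in challenged RNA-rich cells, beside 5.32-fold and 11.7-fold at ordinary depth. Lowest were LOCUS12952 at a ratio of 0.0376 (0.0275 to 0.0504) and LOCUS12318 at 0.153 (0.141 to 0.166), beside 0.276 and 0.384. For all 4 the ratio lay on the same side of 1 in both classes. The unequal cecropin B limits apply to these ratios too, and their part in them was not tested.

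**Figure D5:**
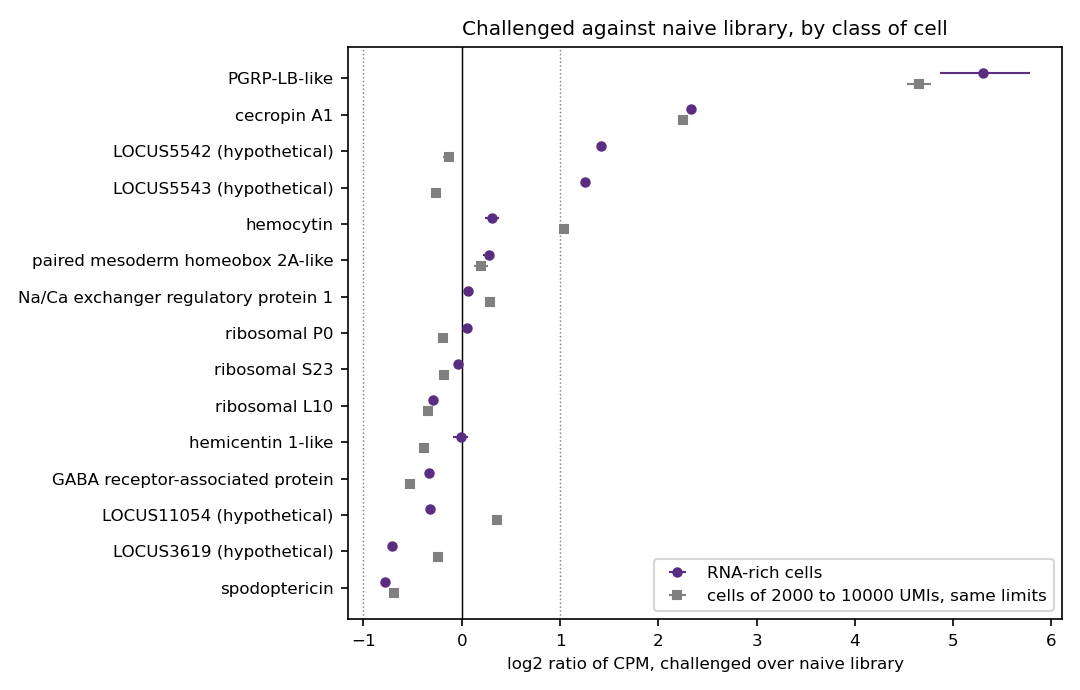
Log2 ratio of CPM, challenged over naive library, for 15 named genes, with purple circles for RNA-rich cells and grey squares for cells of 2000 to 10000 UMIs under the same limits. Bars are 95% exact conditional intervals of counting error and dotted lines mark 2-fold. PGRP-LB-like and cecropin A1 lie right of 2-fold in both classes, LOCUS5542 and LOCUS5543 in RNA-rich cells but not at ordinary depth.

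Cell barcodes shared by the libraries numbered 44, or 0.351% of the barcodes of the challenged library. The barcode of 1 RNA-rich cell was also in the other library, and no barcode was an RNA-rich cell in both.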

How the data were processed

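UMI counts per gene and cell were used as deposited by the authors, who made them from 10x Genomics 3′ libraries. Per the file headers they come from Cell Ranger 7.2.0, and the study's methods name another version. The submitters' processing notes also list STAR 2.7.10a, Bowtie2 2.4.5 and Seurat 4.0. The genome build was not given in the sources used here. Cells with at least 200 genes were kept, without the study's mitochondrial filter, and doublets were scored with Scrublet in scanpy 1.11.5 and not removed. UMI counts were summed per library and class and scaled to CPM, and folds of 2 were read without a test, since each condition had 1 library. TMM factors came from edgeR 4.0.16. Intervals are exact (scipy 1.17.1). The intervals of ratios were tested on simulated counts without added spread between cells, thinning on real cells and the rule on made-up cells. The other procedures were not tested in this way. The cells, gene lists, levels and comparisons were chosen with earlier results of these data known. Named genes were loci that the study's tables pair with a name, plus 2 unnamed loci in each direction with the most extreme ratio in both libraries at 100 CPM or more. The loci given for NEDD8 and UBR1 were not among them. Apoptosis-inducing factor and paired mesoderm homeobox 2A-like have 2 locus numbers each in those tables, and 1 of each was used. Names that the tables give inconsistently were replaced by locus numbers.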

Additional observations from a re-analysis of the deposited data

Results flagged for a closer look

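The ratio of challenged over naive library went opposite ways in the RNA-rich cells and in the cells of ordinary depth for 3 named genes whose intervals lay on opposite sides of 1 and whose ratio was 2-fold or more in at least 1 class. The hypothetical protein LOCUS5543 was at 2.38 in RNA-rich cells and 0.834 at ordinary depth, and LOCUS5542 at 2.66 and 0.913. Troponin T (LOCUS349), a muscle protein, was at 3.87 and 0.472, but its RNA-rich value rests on 5 naive and 23 challenged UMIs. With 1 library per condition the difference between the classes was not tested. The marker limits cut the 2 libraries unequally, and their part in these ratios was not tested either.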

How the results depend on the processing

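The share of RNA-rich cells followed its limits: it was 4.85% of naive and 5.53% of challenged cells at a minimum of 15000 UMIs, 1.301% and 2.00% at 25000 UMIs, 2.06% and 2.42% with every marker limit halved, 3.27% and 4.73% with every one doubled, and 1.43% of challenged cells with a cecropin B limit of 60. Genes per cell had medians of 451 and 486 at 1000 UMIs and 3106 and 3334.5 without thinning. Doublet calls were 5.43% and 4.05% at an expected rate of 10%, and 9.04% and 11.0% for the highest-scored 5% of cells, an alternative chosen after seeing the data. The 124 genes higher and 415 lower than at ordinary depth became 241 higher against all cells of 2000 to 10000 UMIs, 5 higher and 44 lower against the other deep cells, 191 higher without the 50 most abundant genes in the totals, 431 higher and 221 lower with TMM factors, 217 and 939 at a minimum of 10 CPM, and 322 and 3418 with no filter. After challenge, the 49 genes higher and 19 lower became 118 and 62 at 10 CPM and 1733 and 1012 with no filter, while 33 were lower at 25000 UMIs and 49 with a cecropin B limit of 60. The causes of these moves were not tested, except that lower minimums admit more genes. Scaling the limits on LOCUS1946 and LOCUS9294 to depth, also chosen after seeing the data, gave 105 genes higher and 368 lower. Of 54 ratios of named genes, 7 lay on the other side of 1 with TMM factors and at most 3 with equal weight per cell, all cells of 2000 to 10000 UMIs, marked or highest-scored doublets left out, totals without the 50 most abundant genes, or scaled limits. None of those at 2-fold did under these settings. No paired analysis was possible because each condition had 1 library.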
